A study of Mus musculus with 2 samples.

Results

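Matricellular and adhesive glycoproteins are secreted proteins that cells bind through integrins and other receptors. The adhesive ones, such as fibronectin, are part of the scaffold of the extracellular matrix, while the matricellular ones, such as osteopontin, the thrombospondins, tenascin-C, periostin and SPARC, are known mainly for changing how cells attach, move and respond to growth factors. In healthy tissue several of them are made at low levels and are known to be induced during development, wound repair and inflammation, and in the eye they are known from blood vessels, glia and the connective tissue around the retina.

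The 10 genes described here (Spp1, Comp, Thbs1, Thbs2, Tnc, Tnxb, Postn, Sparc, Fn1 and Mgp) were chosen by name, with the differences of Spp1 and Comp between these libraries already known. Their differences are therefore given as a description and with no test. Each name matched 1 of 52636 genes in both tables, and all 10 had at least 50 counts in the higher library.

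The libraries are 1 labelled WT, from wild-type mice, and 1 labelled KO, from mice lacking the microRNA miR-29a, both of strain C57BL/6 and 8 weeks old, with no treatment named. The labels call the tissue retina, and each library pooled the retinas of 3 mice. How the knockout was made is not given in the sources used here. With 1 library per group there is no replicate check, so each difference compares these 2 libraries and not the genotypes.

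The totals were 26805902 counts in the WT-labelled library and 24876925 in the KO-labelled library. The targeted gene Mir29a had 0 counts in both libraries, as did Mir29b-1, Mir29b-2 and Mir29c, so it does not check the genotype labels. The defining transcripts of retina were close to absent. Of 20 markers of retinal neurons and Mueller glia, 18 lay under 1 CPM (count divided by the library total, times 1000000) in each library, and 8, among them Grm6 and Aqp4, were at 0 in each library, where a count of 0 allows up to 0.112 CPM (WT) and 0.121 CPM (KO). Fibroblast markers summed to 8224 and 9434 CPM, with none of the 10 at 0. Xist had 4288 counts and 0, and the 4 Y-linked genes Kdm5d, Ddx3y, Eif2s3y and Uty 17 to 67 counts and 126 to 376. The sex-chromosome difference and the genotype label therefore cannot be told apart. The libraries are called by their labels for these reasons.

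The group as a whole was abundant in both libraries. It took 2.37% of all counts in the WT-labelled library and 3.72% in the KO-labelled library. Without Spp1 the shares were 1.91% and 1.96%, so nearly all of the difference in the sum lay in Spp1. Fn1 held 46.3% of the group's counts in the WT-labelled library and 28.4% in the KO-labelled library, while Spp1 held 19.4% and 47.2%.

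Levels can be compared between genes only per length, for which the authors' FPKM (fragment counts scaled by gene length and library size) was used. In the WT-labelled library the order from highest to lowest was Spp1, Mgp, Fn1, Sparc, Thbs2, Comp, Thbs1, Tnc, Postn and Tnxb. In the KO-labelled library, Sparc stood above Fn1, and Comp had moved from place 6 to place 8, below Thbs1 and Tnc. The range ran from 6.66 FPKM for Tnxb to 2952 for Spp1 in the WT-labelled library, and from 3.96 to 10822 for the same genes in the KO-labelled library. With 1 library per label there is no spread between samples against which neighbours in this order could be compared.

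**Figure D1:**
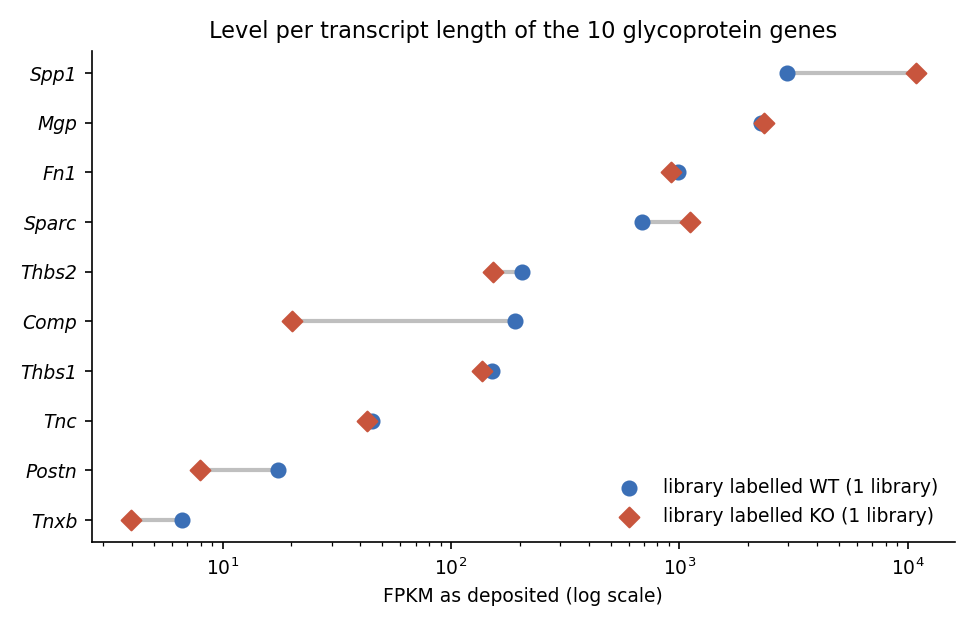
Level per length of the 10 genes (FPKM as deposited, log axis) in the WT-labelled library (circles) and the KO-labelled library (diamonds), 1 library each. Spp1 is highest in both, the longest line belongs to Comp (191 and 20.1 FPKM), and the symbols of Mgp, Fn1, Thbs1 and Tnc nearly coincide.

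Spp1 encodes osteopontin, a phosphorylated cytokine-like ligand of integrins and CD44 that macrophages, osteoclasts, bone-forming cells and activated fibroblasts are known to secrete. It had 123307 counts in the WT-labelled library (4600.0 CPM, exact Poisson interval 4574 to 4626) and 436057 in the KO-labelled library (17529 CPM, 17477 to 17581). It was the most counted gene of the KO-labelled library and number 12 of the WT-labelled library. The ratio of CPM was 3.81, with a 95% exact (Clopper-Pearson) counting interval of 3.79 to 3.84. These intervals hold counting error alone, with no spread between samples. They may be too narrow even for that, because no molecular identifiers were used and reads are not separate molecules. In bulk tissue more cells of a type and more RNA per cell cannot be told apart. Macrophage markers also stood higher there. Of 15 listed genes, 13 had 50 or more counts in the higher library. Of these, 12 were higher by 2-fold or more and 0 lower by 2-fold, beside 4.47% and 2.82% of all tested genes. The exception, Cd14 (127 and 114 CPM), had a log2 ratio of -0.16, while C1qa had 33.7 and 130 CPM. The list summed to 517 CPM in the WT-labelled library and 1622 in the KO-labelled library. The microglial marker Cx3cr1 had 0 counts in the WT-labelled library and 5 in the other. Lyz2, the lysozyme gene, was 3.89-fold higher (217 and 846 CPM). Osteoclast markers were mixed. The 4 of 8 that passed the count minimum had log2 ratios above 0, with a median of 0.80, but Acp5 had 57 counts in each library (0.09). Below the minimum, Ocstamp had 11 and 1 counts, Oscar 11 and 3, and Dcstamp 1 and 0 (with Acp5, named after their values were seen). The 8 genes summed to 171 and 376 CPM, most of it from Ctsk. Ctsk, which encodes a collagen-cleaving protease that fibroblasts also express, was 2.25-fold higher (155 and 348 CPM). Nfatc1 (11.0 and 22.2 CPM) had a log2 ratio of 0.98 and Mmp9 (2.39 and 3.90 CPM) one of 0.61. Calcr, the calcitonin receptor gene, was at 0 in both. Of 9 bone markers 3 passed the count minimum, with 1 log2 ratio above 0 and 2 below. Runx2 had 22.6 and 18.2 CPM (-0.31), Alpl 3.47 and 6.67 CPM (0.85) and Phex 2.16 and 1.45 CPM (-0.45). Ibsp and Sost were at 0 in both, and the list summed to 31.3 and 27.8 CPM. The part of other cell types in the Spp1 difference was not tested.

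Osteopontin, cartilage oligomeric matrix protein, the thrombospondins and fibronectin share a sequence feature. The genes were not chosen by this feature, but the group was defined as proteins that cells bind through integrins and other receptors. The tripeptide Arg-Gly-Asp is the classic attachment site for integrins. A reading frame search of the longest annotated coding sequence of each gene (GENCODE M21, GRCm38) found it in 5 of the 10 genes, against 8.98% of 11609 protein-coding genes past the count minimum and 22.5% of the 1669 with 1000 or more codons. The choice of the group was not independent of integrin binding, and Comp, Thbs1 and Thbs2 belong to the same family. Nothing is therefore read from these shares. The searched letters were the codons of arginine, glycine and aspartate in frame on the coding strand. The 27 bases around each match are shown because they are the part of the transcripts that encodes the receptor-binding letters, with the 3 codons in capitals. Spp1 has it at codon 145 of 295 (exon 7 of 8, chr5:104439472-104439498, plus strand), Comp at codon 365 of 755 (exon 10 of 19, chr8:70377211-70377237, plus strand), and Thbs1 and Thbs2 at codons 927 of 1171 and 928 of 1172, where the window spans exons 17 and 18 in both (chr2:118122680-118122899, plus strand, and chr17:14671475-14673144, minus strand). Fn1 has it at codon 1614 (exon 30 of 46, chr1:71606737-71606763) and again at codon 2181 (exon 40, chr1:71597434-71597460), of 2477 codons on the minus strand. A match is a description of the letters and does not show binding.
Spp1: cccaacggcCGAGGTGATagcttggct
Comp: ctggatggcCGGGGCGATgcctgcgac
Thbs1: ggtgatggcCGAGGTGACgcctgcaaa
Thbs2: ggtgacggcCGAGGTGACatttgtaaa
Fn1, codon 1614: gtcactggcCGTGGGGACagtccagca
Fn1, codon 2181: catgttcccAGGGGAGACgtagactac

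The 5 genes with the tripeptide included the highest and the lowest ratio of the group, Spp1 and Comp, and 3 genes between them. The other 5 genes had log2 ratios from -1.08 to 0.76.

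Comp encodes a pentameric thrombospondin, known from cartilage, tendon and other load-bearing matrix, where it binds collagens and fibronectin. It had 14373 counts in the WT-labelled library (536 CPM, 527 to 545) and 1455 in the KO-labelled library (58.5 CPM, 55.5 to 61.6). Its rank by CPM went from 266 to 3338. The ratio was 9.17-fold lower in the KO-labelled library, with an interval of 8.69 to 9.68, and only 10 of the 12382 genes tested had a lower log2 ratio.

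Tendon markers lay on the same side at smaller sizes, with 4 of 4 measured log2 ratios below 0 and a median of -0.79. Of these, 0 were at a log2 ratio of -1 or below, beside 2.82% of all tested genes. Fmod (4.85 and 2.41 CPM, named after its values were seen) was 2.01-fold lower as a plain ratio and at -0.88 with 0.5 CPM added, the scale on which 2-fold was counted throughout. The tendon transcription factor gene Scx had 19.5 and 10.9 CPM, Mkx 20.9 and 15.7 CPM, and Tnmd, which encodes tenomodulin, 7.72 and 4.34 CPM. Cartilage markers were mixed, since Acan and Col9a1 were at 0 in both libraries, Col2a1 had 114 and 156 CPM and Sox9 68.0 and 48.8 CPM. The cartilage list summed to 184 and 207 CPM, with 8 of 11 members under 1 CPM in each library. Their part in the Comp difference was not tested.

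The trimeric thrombospondins encoded by Thbs1 and Thbs2 activate latent TGF-beta (Thbs1), bind CD47 and CD36 and restrain blood vessel growth. Thbs1 had 23151 and 20325 counts, or 864 and 817 CPM. It was 1.06-fold lower in the KO-labelled library (1.04 to 1.08). Thbs2 had 30724 and 22035 counts, or 1146 and 886 CPM, and was 1.29-fold lower (1.27 to 1.32). Both thus lay far from the 9.17-fold of Comp. Among thrombospondins that are not in the group, Thbs4, which like Comp forms pentamers, had 793 and 157 counts (29.6 and 6.31 CPM) and was 4.69-fold lower (3.95 to 5.60). Thbs3, the remaining pentameric one (named after its values were seen), had 525 and 333 counts and was 1.46-fold lower (1.27 to 1.68). With library totals, all 5 thrombospondin genes, Comp included, were thus lower in the KO-labelled library, with the pentameric ones at log2 ratios of -3.19, -2.14 and -0.53 and the trimeric ones at -0.08 and -0.37.

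The tenascins are large multi-domain glycoproteins, of which tenascin-C is known to be made at wound edges and around developing tissue and tenascin-X to organise collagen fibrils. Tnc had 8879 and 8138 counts, or 331 and 327 CPM, and its ratio of 0.988 had an interval of 0.958 to 1.02 that held 1. Tnc was the 1 member whose counting interval held 1. Tnxb, by contrast, had 2060 and 1182 counts (76.8 and 47.5 CPM) and was 1.62-fold lower in the KO-labelled library (1.51 to 1.74). Of the other tenascins, Tnr was at 0 in both libraries and Tnn had 8 and 28 counts, below the count minimum (both named after their values were seen).

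Postn encodes periostin, a fasciclin-domain protein of collagen-rich tissue. It had 3865 and 1690 counts (144 and 67.9 CPM), and was 2.12-fold lower in the KO-labelled library (2.00 to 2.25). With a log2 ratio of -1.08 it lay just past the 2-fold size used for counting. Its fasciclin relative Tgfbi, which was read at 172 and 94.9 CPM, lay at a log2 ratio of -0.86.

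Sparc encodes a collagen- and calcium-binding protein, also called osteonectin, that is known as a target of the miR-29 family. It had 65786 counts in the WT-labelled library (2454 CPM, 2435 to 2473) and 103436 in the KO-labelled library (4158 CPM, 4133 to 4183), which moved it from rank 32 to rank 13. The ratio was 1.69, with an interval of 1.68 to 1.71. It was the only member besides Spp1 above 1.5-fold in that direction. Stab1, which encodes a scavenger receptor for SPARC known from macrophages and sinusoidal endothelium, was 4.17-fold higher (25.5 and 107 CPM, 3.84 to 4.55).

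MicroRNAs repress transcripts that pair with their seed, bases 2 to 8. The mature sequences of the 3 family members, from RefSeq (GRCm38.p6), are shown because all carry the same seed, in capitals. Only miR-29a, which lies at chr6:31062673-31062694 on the minus strand, is the one named as lacking.
mmu-miR-29a-3p: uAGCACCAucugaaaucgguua
mmu-miR-29b-3p: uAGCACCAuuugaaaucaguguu
mmu-miR-29c-3p: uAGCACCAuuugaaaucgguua

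The longest annotated 3' UTR of each member was searched on the transcript strand for the full match to bases 2 to 8, TGGTGCT, and for the overlapping match to bases 2 to 7 followed by A, GGTGCTA. The first was in 0 of the 10 members, and in 16.1% of 11585 protein-coding genes searched. The second was in 1 of the 10, and in 8.2% of those genes. That member was Sparc, with matches at bases 110 and 143 of its 1085-base 3' UTR, both in exon 10 of 10. Not even the match to bases 2 to 7 alone, GGTGCT, was found in the other 9 members, against 34.8% of genes. Their 3' UTRs ran from 167 bases (Comp) to 2104 (Thbs1), and no match says only that these letters are not in the searched window. The windows of 24 bases around the matches in Sparc are shown with the matching letters in capitals (chr11:55395464-55395487 and chr11:55395431-55395454, minus strand, GRCm38).
Sparc, first match: gcctggggataaGGTGCTAacata
Sparc, second match: gaatacattaacGGTGCTAaaaaa

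Across genes, those with GGTGCTA had a median log2 ratio of 0.15 (950 genes), those with 2 or more such matches 0.26 (91 genes) and all genes searched 0.07. Sparc, at 0.76, lay above each of these medians, but 17.6% of the genes with 2 or more matches and 7.61% of all genes searched had a ratio as high or higher. UTR length and base content were not matched in this comparison, so nothing is read from these medians. The part of miR-29a in the Sparc difference was not tested, and the genotype label cannot be told apart from the sex-chromosome difference.

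Fn1 encodes fibronectin, the principal adhesive glycoprotein of connective tissue, and was the second most counted gene of both libraries. It had 293409 and 262436 counts, or 10946 and 10549 CPM, and was 1.04-fold lower in the KO-labelled library (1.03 to 1.04). Its counts cover 17 annotated transcripts, which gene-level counts cannot separate. Mgp encodes matrix Gla protein, a small vitamin K-dependent inhibitor of calcification. It had 68577 and 68014 counts, or 2558 and 2734 CPM, and was 1.07-fold higher (1.06 to 1.08). Both counting intervals left out 1. The differences were small beside the quartiles of all tested genes, whose log2 ratios of -0.25 and 0.37 bounded the middle of the distribution. Of the listed enzyme genes of the vitamin K pathway, Ggcx had 40.7 and 31.1 CPM and Vkorc1 21.4 and 18.4 CPM (named after their values were seen).

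By the size of 2-fold, 1 of the 10 members was higher in the KO-labelled library (Spp1), against 4.47% of the 12382 genes with 50 or more counts. Lower by 2-fold were 2 members (Comp and Postn), against 2.82%. Since the members were chosen with Spp1 and Comp known, nothing is read from these counts. Highly counted genes passed 2-fold less often, with 2.45% higher and 1.99% lower among the 4984 genes with 1000 or more counts, a minimum that all 10 members passed. Of the members 3 had a log2 ratio above 0 and 7 below, with a median of -0.07, beside a median of 0.06 over all tested genes. The members spread from -3.19 to 1.93.

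**Figure D2:**
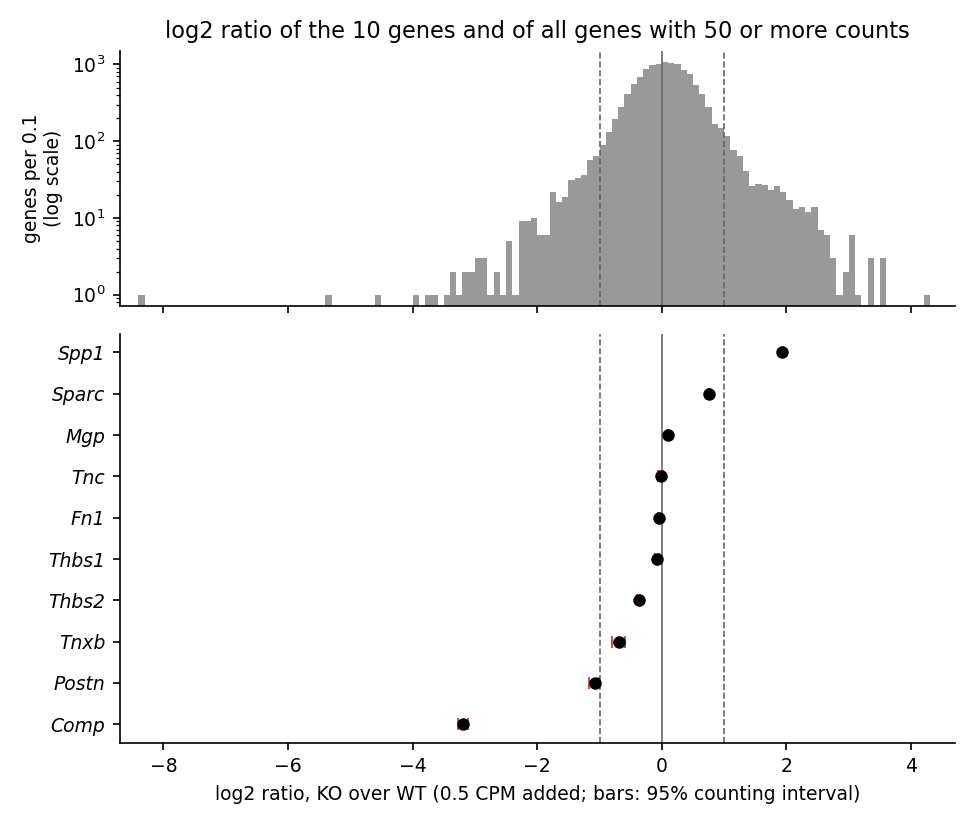
Top, number of genes (log axis) by log2 ratio of KO over WT among genes that reached 50 counts in either library. Bottom, the 10 members on the same axis, with 95% counting intervals as bars, and dashed lines at 2-fold; Spp1 lies at 1.93, Comp at -3.19 and Postn at -1.08, and the other 7 lie between the dashed lines.

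The log2 ratio followed base composition across all genes, with a Spearman rho of -0.44 between log2 ratio and GC content of the longest transcript over 12371 genes of these 2 libraries, given as a description. The median went from 0.31 in the lowest GC decile to -0.31 in the highest. Comp (59.9% GC) and Tnxb (60.7%) lay in the highest decile and Postn (36.3%) in the lowest, while Spp1 (43.3%) lay in the second lowest, where the median was 0.32. After subtraction of the median of genes of like GC and then of like length, Comp was at -2.86, Spp1 at 1.63, Postn at -1.42 and Tnxb at -0.37. Thus the differences of Spp1 and Comp were smaller, that of Tnxb was nearer to 0, and that of Postn was larger, since the genes of its GC content lay on the other side of 0. Sparc (52.5% GC) was at 0.81 after the correction.

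**Figure D3:**
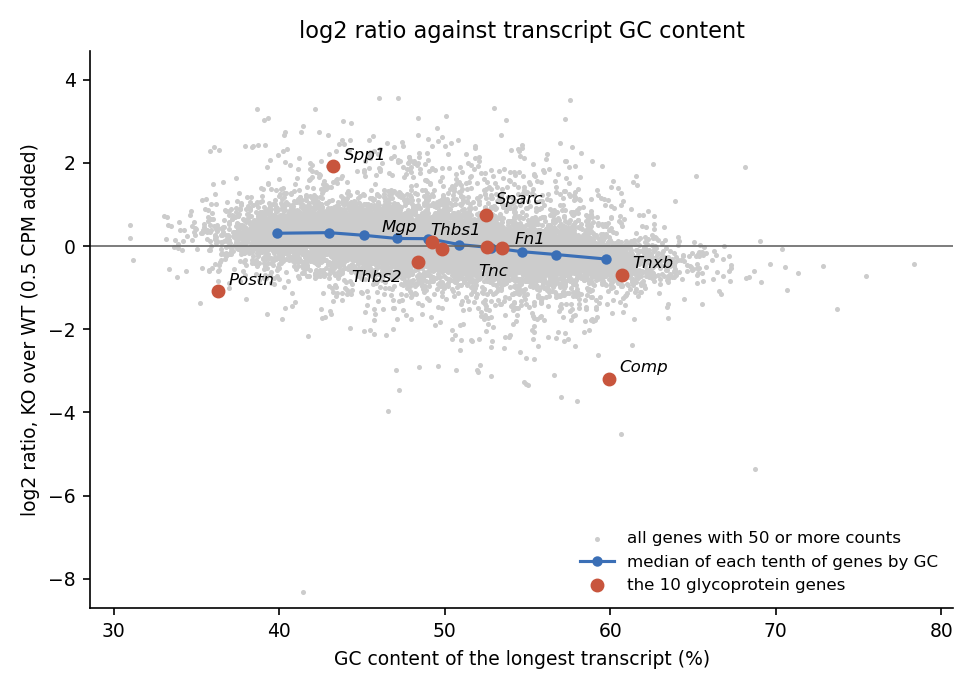
log2 ratio of KO over WT against GC content of the longest transcript for all genes with 50 or more counts (grey), with the median of each GC decile (blue line) and the 10 members (red). The blue line goes from 0.31 at low GC to -0.31 at high GC, Comp and Tnxb lie at the GC-rich end, and Postn lies below 0 at the GC-poor end, where most genes lie above it.

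Genes of the same families and pathway were read from 7 lists, chosen with earlier results of these libraries known. Of the thrombospondin, tenascin and SPARC relatives, 7 of 12 had 50 or more counts in the higher library, with a median log2 ratio of -0.86. Of these, 0 were higher by 2-fold, 3 lower and 4 neither, beside 4.47% of all tested genes higher and 2.82% lower. The 3 were Thbs4, Smoc1 (22.9 and 8.12 CPM, 2.82-fold lower, 2.40 to 3.32) and Sparcl1 (36.0 and 15.9 CPM, 2.27-fold lower, 2.02 to 2.56). Smoc1 and Sparcl1 share a calcium-binding domain with SPARC and thus lay on the other side of 0 from Sparc itself. The relative with the highest counts, Fstl1, a follistatin-like glycoprotein, had 683 and 1036 CPM and a log2 ratio of 0.60. Corrected for GC and length, the list median was -1.02. The correction took Smoc2 from -0.82 to -1.02, past the 2-fold size (named after its values were seen).

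The CCN proteins are matricellular integrin ligands, some of which are known to be induced by mechanical load and TGF-beta. Of 6 listed genes 5 passed the count minimum, and 0 were past 2-fold in either direction, with a median log2 ratio of 0.11, or -0.06 when corrected for GC and length. Cyr61 had 457 and 423 CPM, Ctgf 366 and 433 CPM, and Nov 222 and 351 CPM. The listed bone and tooth matrix proteins related to osteopontin were close to absent, with 5 of 6 at 0 in both libraries and Dmp1 at 12 and 3 counts. Beside these listed relatives, Spp1 alone was abundant in these libraries.

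Of 18 other adhesive glycoproteins 15 passed the count minimum, with 0 higher by 2-fold, 1 lower and a median log2 ratio of -0.26. The 1 was Fbln1, which encodes the fibronectin-binding fibulin-1 (210 and 96.6 CPM, 2.17-fold lower, 2.07 to 2.28). The genes with the most counts, a ranking not per length, were Ecm1 (1986 and 2031 CPM), the fibulin-like gene Efemp1 (1138 and 1661 CPM) and the basement membrane linker gene Nid1 (697 and 1008 CPM). Corrected for GC and length, Fbln1 was at -1.03 and the list median at -0.09.

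Receptors of these glycoproteins were read next. Of 21 listed genes 20 passed the count minimum, with 15 log2 ratios above 0, 5 below and a median of 0.47, and 5 were higher by 2-fold and 0 lower, beside 4.47% and 2.82% of all tested genes. Corrected for GC and length, the list median was 0.23, beside 0 for all genes. Cd36, a receptor for thrombospondins and lipoproteins known from macrophages and small vessels, had 225 and 1158 counts (5.55-fold, 4.80 to 6.43). Cd44, a hyaluronan receptor that also binds osteopontin, was 2.14-fold higher (144 and 308 CPM, 2.06 to 2.22). The integrin subunit genes Itga3 (2.47-fold, 2.29 to 2.67) and Itga8 (2.26-fold, 1.66 to 3.10, on 63 and 132 counts) and Stab1 made up the 5. After the correction Cd44 was at 0.83 and Itga8 at 0.70, both below the 2-fold size, while Cd36, Stab1 and Itga3 were at 2.05, 2.25 and 1.47. The genes of this list with the most counts were Lrp1 (2467 and 2246 CPM), Calr (1988 and 1610 CPM) and the integrin beta 1 gene Itgb1 (438 and 672 CPM). Of the integrin pairs known to bind fibronectin and osteopontin, Itga5 had a log2 ratio of 0.87, Itgb3 0.81, Itga4 0.52, Itgav 0.41, Itgb8 0.07, Itga9 -0.01 and Itgb5 -0.05 (named after their values were seen). Corrected, Itga5 was at 1.05 and Itgav at 0.10. Cd36 and Stab1 stood higher along with the macrophage markers given above. Endothelial markers stood higher too for the most part, with 5 of 8 measured members higher by 2-fold, 0 lower by 2-fold and 1 below 0. Their sums were 29.5 and 57.1 CPM over 10 genes, none at 0. By mean CPM the top 3 were Cdh5 (6.53 and 23.2 CPM), Emcn (7.91 and 6.55 CPM) and Tek (6.57 and 6.71 CPM). The part of either cell type in the receptor values was not tested.

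Of 13 modifying enzymes and inhibitors, all past the count minimum, 0 were past 2-fold in either direction, and the median log2 ratio was -0.06. Fam20c, which encodes the kinase that phosphorylates osteopontin, had 74.2 and 103 CPM and the crosslinking enzyme gene Tgm2 124 and 114 CPM (both named after their values were seen). The genes with the most counts were Gas6 (502 and 356 CPM), which encodes a vitamin K-dependent ligand, Furin (195 and 219 CPM) and the procollagen protease gene Bmp1 (192 and 182 CPM). Of 10 TGF-beta response genes 1 was higher by 2-fold, Skil (249 and 492 counts, 2.13-fold, 1.82 to 2.49), and 1 lower, Timp3 (2.04-fold, 1.92 to 2.18), with a median of -0.21. Over all tested genes, 4.47% were higher by 2-fold and 2.82% lower. The genes with the most counts were Col1a1 (1266 and 1036 CPM), Ltbp2 (553 and 428 CPM) and Junb (285 and 235 CPM). The GC and length correction took Skil to 0.74, below the 2-fold size, left Timp3 past it at -1.24, and moved the list median to 0.04, on the other side of 0. It also moved the median of the modifying enzymes across 0, to 0.12.

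The fibroblast markers, which had the highest summed CPM of the marker lists, had a median log2 ratio of 0.29, with 0 of 10 past 2-fold on the log2 scale with 0.5 CPM added. As a plain ratio Fap (5.60 and 2.73 CPM, named after its values were seen) was 2.05-fold lower. Col1a2 had 2757 and 2648 CPM, Col3a1 1266 and 1633 CPM, and Dcn 995 and 1895 CPM. Of the smooth muscle and pericyte markers, 6 of 10 passed the count minimum, with 3 log2 ratios above 0, 3 below, a median of -0.03 (0.22 corrected) and 0 past 2-fold. Over all tested genes, 4.47% were higher by 2-fold and 2.82% lower. Pdgfrb had 208 and 158 CPM, Acta2 81.3 and 131 CPM, and Smtn 67.1 and 44.7 CPM.

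**Figure D4:**
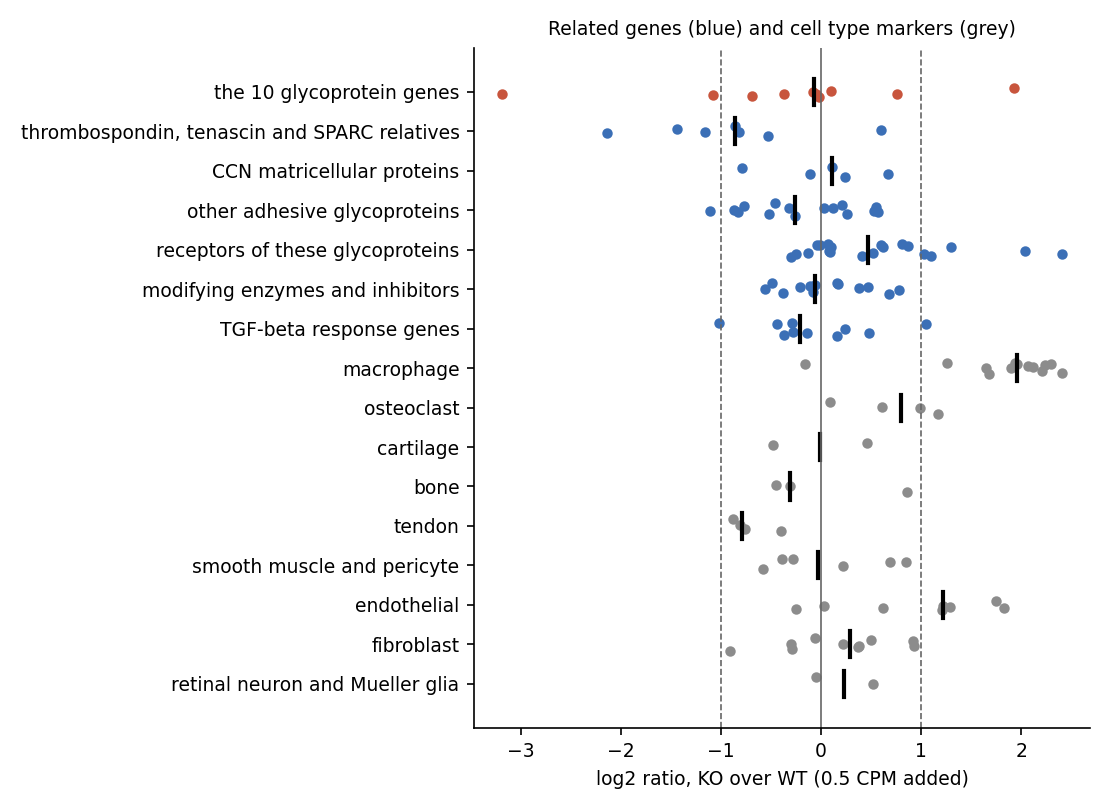
log2 ratio of KO over WT of each gene that reached 50 counts in either library, for the 10 members (red), the related gene lists (blue) and the cell type marker lists (grey), with the list median as a black bar; the vertical scatter within a row carries no value. The macrophage markers centre at 1.96 and the thrombospondin, tenascin and SPARC relatives at -0.86, while the 10 members spread from -3.19 to 1.93.

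Other processing choices left each member on its own side of 2-fold. Over 8 other ways of scaling or correcting, Spp1 ranged from 1.63 to 1.95, Comp from -3.25 to -2.86, Postn from -1.42 to -1.06 and Sparc from 0.69 to 0.81. The members near 0 had no fixed direction, since Tnc ranged from -0.08 to 0.03 and Mgp from -0.04 to 0.12. Fn1 and Thbs1 stayed below 0 in all 8, by at most 0.12 and 0.26.

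**Figure D5:**
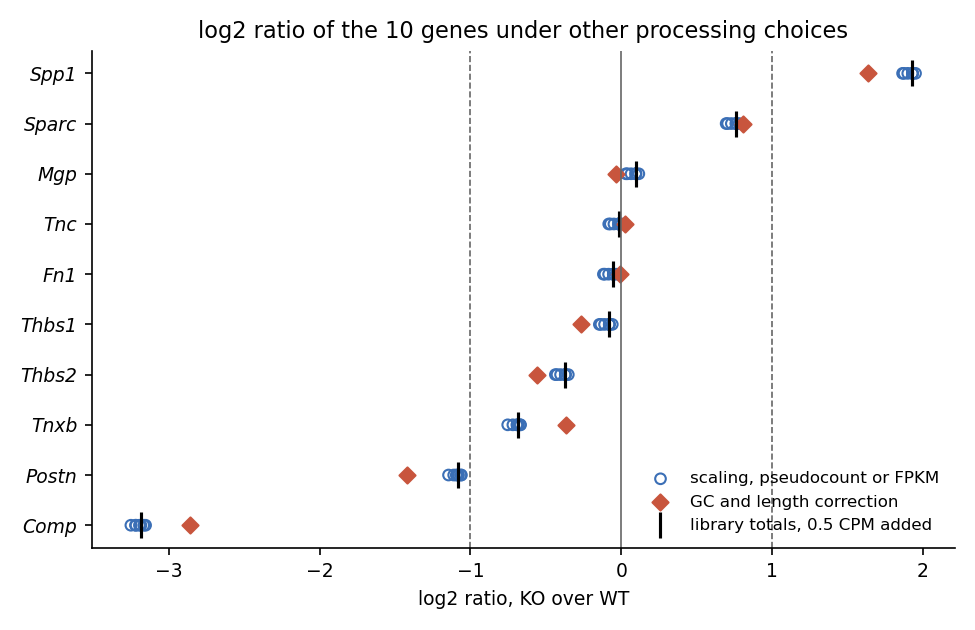
log2 ratio of KO over WT of the 10 members with library totals and 0.5 CPM added (black ticks), under other scalings, pseudocounts or the authors' FPKM (open circles) and after the GC and length correction (diamonds). The symbols of Spp1, Postn and Comp stay beyond the dashed 2-fold lines, and those of Tnc and Mgp lie on both sides of 0.

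Reads of a gene and of one that overlaps it cannot be told apart without strand, and the sources used here do not give the strand setting. Of the annotated genes that overlap a member, the highest count belonged to Apol7d, antisense to the start of Fn1, with 5 and 14 counts. The others (Gm42793 in Spp1, 8030451A03Rik in Tnc, Gm29233 in Thbs1, and Gm24389 and Cyp21a2-ps in Tnxb) had at most 4. These counts are small beside those of every member.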

How the data were processed

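RNA-seq of 1 library labelled WT and 1 labelled KO was used. Per the labels' protocols, the NEBNext Ultra RNA kit followed removal of ribosomal RNA. HISAT2 and mm10 (GRCm38) are named in the submitters' processing notes, while for the counter, annotation release and strand setting the sources used here give nothing. The deposited tables hold whole-number read counts per gene, used as deposited, and the authors' FPKM, whose scaling is not given. FPKM served for levels between genes and as an alternative.

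CPM is the count over the library total. The log2 ratio is KO over WT after adding 0.5 CPM, for genes reaching 50 counts in either library. Calls of 2-fold use this log2 ratio, and printed folds are ratios of CPM with nothing added. No test or p-value was possible. The 4 genes whose ratio of count to FPKM differed by over 1% between the tables were left out. Positions, transcripts and UTRs came from GENCODE M21, which held 52403 of the 52636 identifiers. Of 2 identifiers named Itgam the protein-coding one was taken.

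Members and lists were chosen with earlier results of these data known. Named genes were the members, pathway list members past 2-fold, up to 3 of highest CPM per list, markers at 0 and the 3 genes nearest to Spp1 and to Comp; others are marked as chosen after their values were seen. Alternatives were edgeR TMM and median-of-ratios factors, reduced totals, other pseudocounts, minimums and thresholds, FPKM and a GC and length correction in 10 bins each. The ratio and its interval were tested on simulated counts. The software was edgeR 4.0.16 under R 4.3.3, and scipy 1.17.1, pandas 2.3.3, numpy 2.4.6 and matplotlib 3.10.9 under Python 3.11.15.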

Additional observations from a re-analysis of the deposited data

How the results depend on the processing

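No paired analysis was possible because each group has 1 library, and for the same reason no library could be left out. All 80 member values over 8 scalings and corrections lay on the same side of 2-fold as with library totals, and 77 kept their sign, the exceptions being Tnc and Mgp. At a threshold of 1.5-fold, 2 members were higher and 3 lower, and at 4-fold 0 were higher and 1 lower. Over all genes, 554 were higher and 349 lower; the counts were 351 and 214 with 2 CPM added, 340 and 213 with a minimum of 200 counts, 122 and 99 with 1000, 1645 and 1100 at 1.5-fold, and 103 and 58 at 4-fold. With the authors' FPKM 322 were higher and 288 lower. Depth was not the limit for the members, whose counting intervals are narrow; the lack of replicates is.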

Other observations

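Comp lies on chromosome 8 at 70373558 to 70382066 (GRCm38), and 8 genes within 100 kb had 50 or more counts in the higher library. Of these 7 had a log2 ratio below 0 and 1 above, from -0.67 for the ceramide synthase gene Cers1 to 0.22 for Klhl26, with a median of -0.52. Crtc1, which ends 289 bases from Comp on the other strand, was at -0.48. None was past 2-fold. Their median transcript GC content was 58.1%, and corrected for GC and length their median was -0.27. Among other members, Tnxb had 10 such neighbours, 5 below 0 and 5 above. Mgp had 4, 2 on each side of 0, of which Arhgdib was past 2-fold at 1.10. All these neighbours were named after their values were seen. The part of chromosome position in the Comp difference was not tested. The only such neighbour of Spp1, the polycystin gene Pkd2, had 103 and 96.1 CPM.

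By distance in log2 CPM over the 2 libraries, the genes nearest to Comp were the interferon regulatory factor gene Irf7 (336 and 51.2 CPM), the growth factor gene Mdk (306 and 63.0 CPM) and the ribosomal protein pseudogene Rps2-ps10 (868 and 89.8 CPM), whose reads may be shared with copies. The genes nearest to Spp1 were Eef1a1, Fth1 and Fn1, with log2 ratios of 0.27, 0.46 and -0.05, all below the 1.93 of Spp1.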
